A study of Mus musculus with 20 samples.

Results

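The 81 genes described here encode subunits of the oxidative phosphorylation complexes, out of 18193 genes that the arrays read with a probe set of a single gene symbol. They were chosen by symbol alone: the Nduf genes of complex I, Sdha to Sdhd of complex II, the Uqcr genes of complex III, the Cox4 to Cox8 genes of complex IV, and the Atp5 genes of complex V, the ATP synthase. Where a gene had several probe sets, the brightest over all 20 arrays was kept, and no measured difference between populations entered the choice. The symbols gave 35 genes named for complex I, 4 for complex II, 8 for complex III, 17 for complex IV and 17 for complex V. Of these, 78 passed the filter on low values and were tested, and the 3 that did not were Cox7a1, Cox7b2 and Cox8b. Ndufa4, named for complex I, is now assigned to complex IV, and Cox7a2l, named for complex IV, acts in the joining of complexes III and IV into supercomplexes.

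RNA was measured in cells of C57BL/6 mice sorted by surface markers into 10 populations, with 2 biological replicates of each. There were 2 immature fractions: KSL, a fraction rich in blood-forming stem cells and their first progeny, and LinNeg, all cells without lineage markers. The lymphoid populations were B (sorted on B220), CD4T and CD8T (T cells sorted on CD4 or CD8), NK (sorted on NK1.1) and NKT (sorted on CD3ε together with NK1.1). Erythroblast cells were sorted on Ter119. The myeloid populations were Neutrophil (sorted on Gr-1) and Monocyte (sorted on Mac-1 and labelled as monocytes and macrophages). None of the cells carried a stated genetic change or treatment, and the sources used here give neither their age nor the tissue the cells came from. Each array was hybridised with cRNA amplified from RNA equal to that of 3000 cells. Values are linear probe set intensities, as deposited, in which the trimmed mean of each array is 100. Differences are on the log2(intensity + 6.75) scale, are given ± their limma standard error, and understate the change of dim genes.

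Oxidative phosphorylation takes place in the inner mitochondrial membrane. Complexes I and II pass electrons from NADH and succinate to ubiquinone, complex III passes them on to cytochrome c, and complex IV hands them to oxygen, while complexes I, III and IV pump protons whose return through complex V drives the making of ATP. Complex II is also an enzyme of the TCA cycle, and it is the complex whose subunits are all encoded in the nucleus. In blood cells, stem cells and neutrophils are known for relying largely on glycolysis, and red cell precursors lose their mitochondria as they mature.

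Each of the 20 arrays correlated best with the other replicate of its own population, and the fixed markers of KSL, erythroid, B, T and NK cells summed highest in the populations of those names. Several populations also held markers of other cells. The 7 neutrophil markers (among them Ltf, Camp and S100a8) summed to 64781 and 53660 in Monocyte, where all 7 exceeded 100, near the 81583 and 68004 of Neutrophil, and to 15127 and 11953 in NK. The 8 macrophage markers read summed to 17597 and 14374 in NK, above the 6196 and 10305 of Monocyte. Neutrophil markers were high in replicate 2 of LinNeg (2720, against 103 in replicate 1) and of NKT (1832, against 229). Erythroid markers summed to 3862 and 3749 in LinNeg, against 696 and 428 in KSL, and platelet markers to 1586 and 2312 in LinNeg. Plasma cell markers were highest in LinNeg, at 4741 and 4582. The 7 proliferation markers summed to 41948 and 35276 in Erythroblast, 10293 and 11468 in LinNeg, and 2351 and 4198 in Neutrophil. For Gapdh, signal at the 3′ end over signal at the 5′ end, which is larger in shorter RNA, averaged 5.98 in Erythroblast and 2.42 in Neutrophil, the extremes over the populations. The part of these differences in the results below was not tested. In bulk samples of this kind, fewer cells of a type and less RNA per cell cannot be told apart. The animals behind the replicates are not named, so the p-values measure the spread between arrays, which may be partly technical.

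Most subunit genes differed between populations, but by modest amounts. In limma's F test over the 10 populations 71 of the 78 members passed at an adjusted p under 0.05, against 76.5% of all genes tested. By complex this was 31 of 35 members of complex I, all 4 of complex II, all 8 of complex III, 11 of 14 of complex IV and all 17 of complex V. The span between the highest and the lowest population had a median of 1.31 on the log2 scale, against 2.13 over all genes tested. Among 38 members and 1434 genes of similar level the medians were 1.44 and 2.16, so the narrower span was also seen at matched intensity. The narrowest span, 0.45, was that of Atp5g3, which encodes the c subunit of the ATP synthase ring, and the widest, 4.09, that of Cox6b2, an isoform of a complex IV subunit best known from testis.

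**Figure D1:**
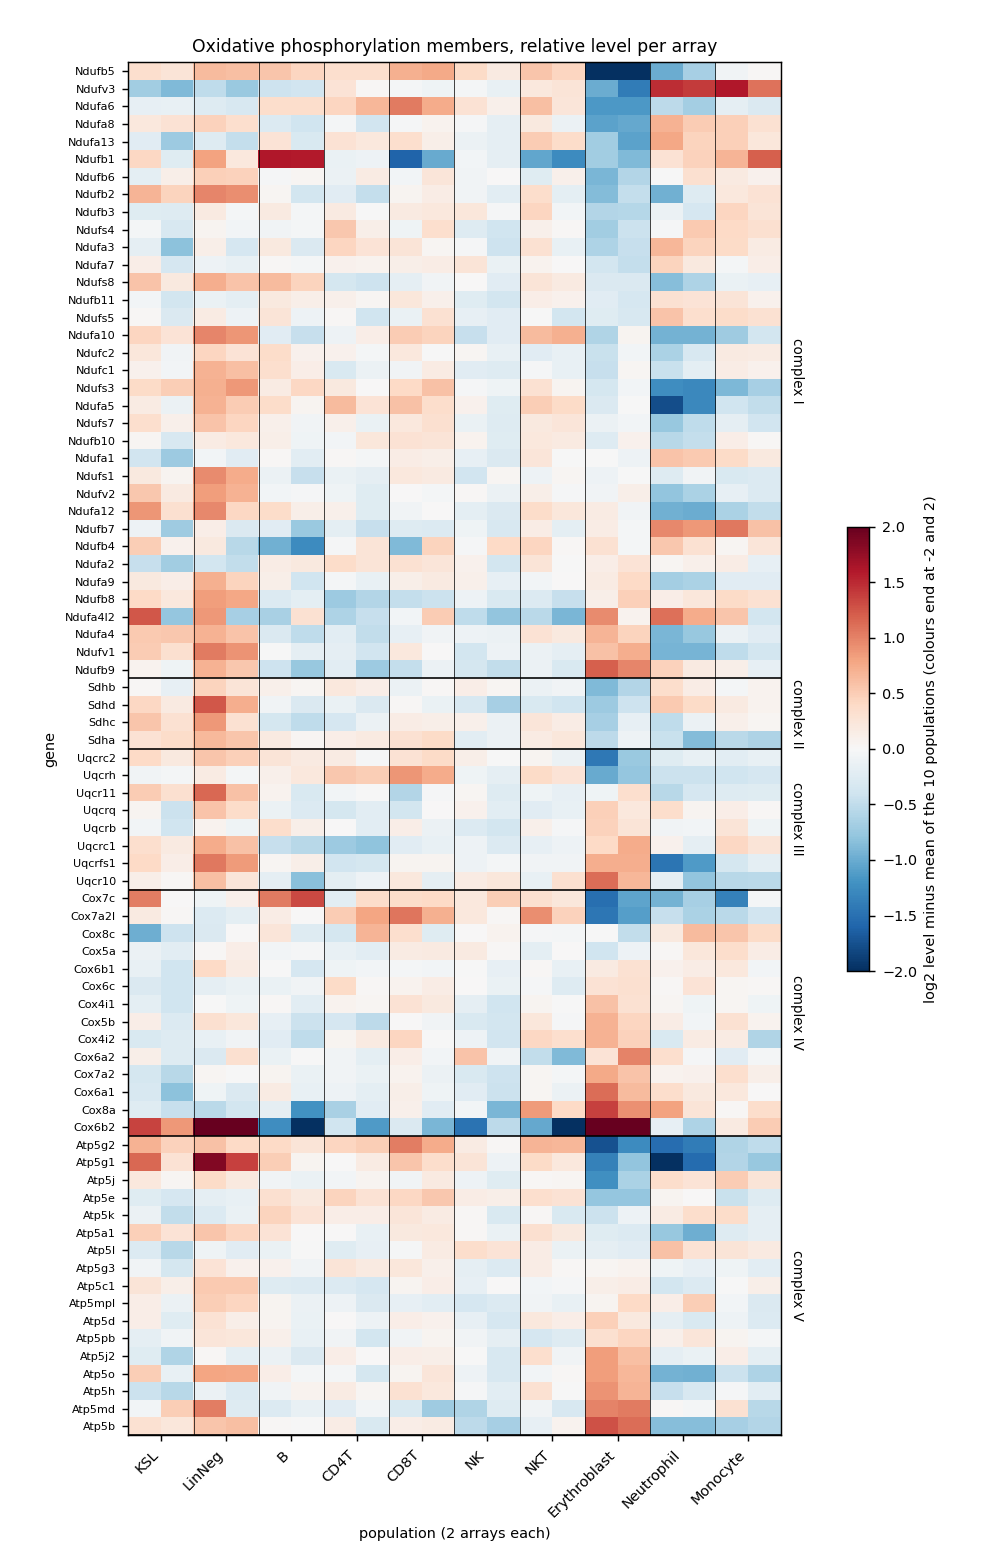
Each of the 78 tested members (rows, grouped by complex and ordered by their level in Erythroblast) on each of the 20 arrays (columns, 2 per population), as its log2 level minus the mean of the 10 populations. The LinNeg columns are mostly above the mean, the Erythroblast columns are split, and Neutrophil is split within complex I. Colours end at -2 and 2.

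The members peaked in LinNeg more often than genes at large. LinNeg had the highest mean for 32 of 78 members, or 41.0%, against 10.5% of all genes tested, and the lowest for none. Erythroblast was highest for 17 members, or 21.8%, and lowest for 22, or 28.2%, near the 24.7% and 26.9% of all genes tested. Neutrophil was highest for 12, or 15.4%, and lowest for 21, or 26.9%, against 14.7% and 20.4% of all genes. Among the 12, Ndufa4l2 and Ndufb4 passed the filter on low values through Neutrophil alone, so their peak there was fixed by the filter. Neither passed limma's F test over the 10 populations (adjusted p = 0.252 and 0.131). KSL was highest for none and lowest for 12, or 15.4%, against 11.2% and 7.91% of all genes. Under quantile normalization or array median centring LinNeg was highest for 34 members in both cases. The KSL counts depended on the scaling. KSL was highest for 3 and lowest for 5 under quantile normalization, and highest for none and lowest for 13 under centring. With the stricter demand that both arrays of a population lie above the other 18, LinNeg stood out for 19 members (4.56% of all genes tested), Erythroblast for 12 (15.6%) and Neutrophil for 4 (8.27%). Both arrays lay below the other 18 for 14 members in Erythroblast (17.1% of all genes) and for 16 in Neutrophil (9.68%).

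**Figure D2:**
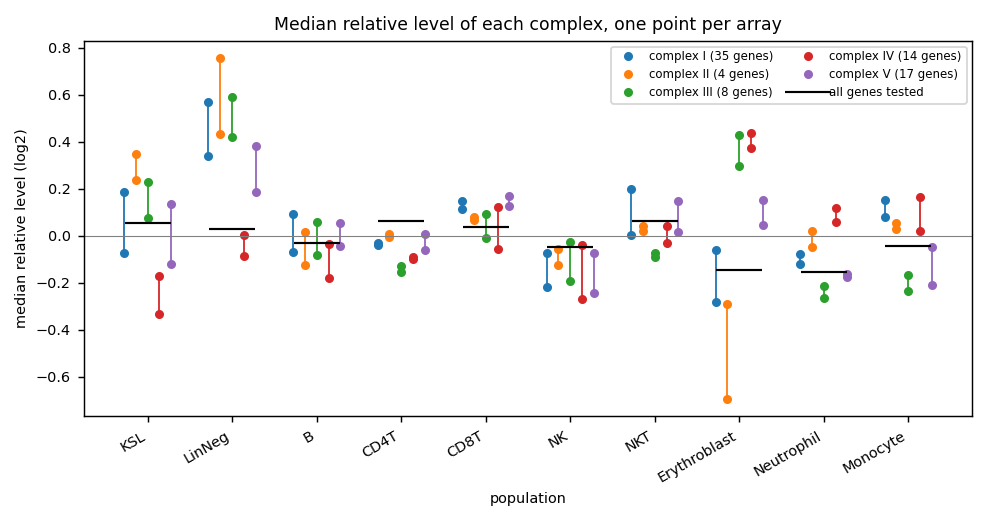
Median over the members of each complex of the log2 level relative to the mean of the 10 populations (vertical axis), 1 point per array with the 2 replicates joined, and the same over all genes tested as a black line. In LinNeg the points of complexes I, II, III and V lie above the line, in Erythroblast those of complexes III, IV and V lie above and those of complex II below it, and the replicates of KSL lie on either side of 0 for complexes I and V.

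LinNeg stood clear of all other arrays for several subunits that carry electrons. Its 19 members included 5 of the 6 core subunits of complex I (Ndufv1, Ndufv2, Ndufs1, Ndufs3 and Ndufs7), Sdha and Sdhd of complex II, and Uqcrfs1, the Rieske protein of complex III. The others were Ndufa9, Ndufa10, Ndufb2, Ndufb6, Ndufb8 and Ndufc1 of complex I, Uqcr11 and Uqcrc2 of complex III, Cox6b2 of complex IV, and Atp5c1 and Atp5g1 of complex V. The 16 members that Neutrophil held below all other arrays overlapped with these in Ndufv1, Ndufv2, Ndufs3, Ndufs7, Ndufa9, Ndufa10, Uqcrfs1 and Atp5g1, and the 4 that it held above were the accessory subunit genes Ndufa1, Ndufa3, Ndufa8 and Ndufb11. Ndufv1, the flavoprotein that takes electrons from NADH, was 2737 and 2490.0 in LinNeg, 697 and 695 in Neutrophil and 937 to 2208 on the other arrays. CD8T was above all other arrays for 5 members (1.84% of all genes tested), which were Ndufa6, Ndufb5, Ndufb10, Uqcrh (by its brightest probe set) and Atp5g2, and B for 2 (3.82% of all genes), Ndufb1 and Cox7c.

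The 3 genes of the c subunit of the ATP synthase ring differed in range. Atp5g1, Atp5g2 and Atp5g3 encode precursors that differ in their import sequences and give the same mature protein. Atp5g1 was 1011 and 721 in LinNeg, 619.8 and 339 in KSL, 257 to 409.7 on the lymphoid arrays, 182 and 161 in Monocyte, 104 and 157 in Erythroblast and 64.0 and 90.9 in Neutrophil. LinNeg lay above and Neutrophil below all other arrays. Atp5g2 was 1678 and 1383 in CD8T, the highest, and 836 to 1333 on the arrays of KSL, LinNeg and the other lymphoid populations. It was 539 and 576 in Monocyte, 282 and 307 in Neutrophil and 242 and 341 in Erythroblast, below all of those, and the last 2 populations overlapped. A probe set of Atp5g2 near background gave differences of 0.22 and 0.10 for Erythroblast against the other mature populations and LinNeg. Atp5g3 ranged from 3731 to 5756 on all arrays, and Erythroblast minus LinNeg was -0.12 ± 0.12 (limma adjusted p = 0.441).

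**Figure D3:**
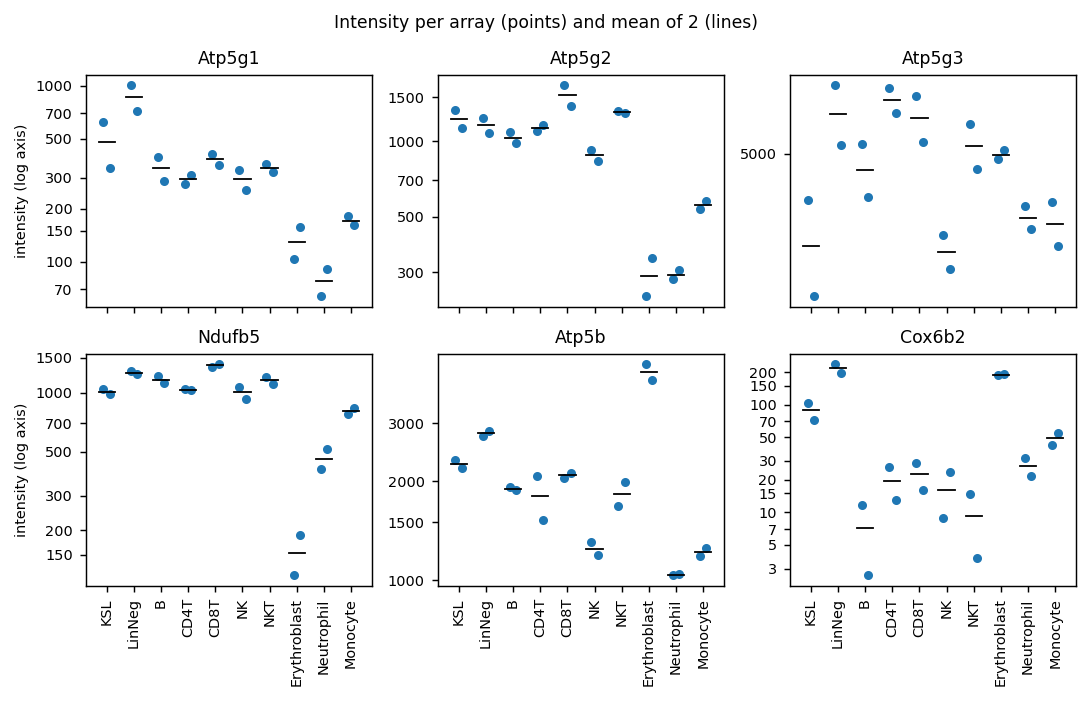
Intensity (log axis, a different range in each panel) of 6 members on each array (points) with the mean of 2 (lines), by population. Atp5g1 and Atp5g2 are low in Erythroblast, Neutrophil and Monocyte, Atp5g3 keeps within a narrow range, Ndufb5 is lowest and Atp5b highest in Erythroblast, and Cox6b2 is high in KSL, LinNeg and Erythroblast.

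The upstream sequences of these genes, and of the members with the largest differences in Erythroblast, are shown so that their letters can be compared. Whether they bear on the levels was not tested. They are the 150 bases before the RefSeq transcription start (GRCm38.p6), 5′ to 3′ on the strand of the gene, with matches on either strand in capitals to the words searched. These were GCGCA, any base and GCGC for NRF1, CCGGAAG for ETS factors, AAGATGG for YY1, GGGCGG for Sp1, CCAAT, and AGATAA for GATA factors. NRF1 and factors of the ETS family are known as regulators of respiratory chain genes, and GATA1 of erythroid genes.
Atp5g1, chr11:96075632-96075781 (minus strand): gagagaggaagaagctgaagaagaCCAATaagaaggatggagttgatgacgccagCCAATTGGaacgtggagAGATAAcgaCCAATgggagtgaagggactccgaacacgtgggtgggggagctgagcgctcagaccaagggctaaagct
Atp5g2, chr15:102671048-102671197 (minus strand): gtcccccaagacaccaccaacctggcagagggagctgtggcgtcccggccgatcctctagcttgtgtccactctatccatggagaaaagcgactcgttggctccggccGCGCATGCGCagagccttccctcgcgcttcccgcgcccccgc
Atp5g3, chr2:73911327-73911476 (minus strand): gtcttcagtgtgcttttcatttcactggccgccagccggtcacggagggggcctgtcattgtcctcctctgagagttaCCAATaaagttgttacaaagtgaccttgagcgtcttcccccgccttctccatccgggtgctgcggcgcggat
Ndufb5, chr3:32736913-32737062 (plus strand): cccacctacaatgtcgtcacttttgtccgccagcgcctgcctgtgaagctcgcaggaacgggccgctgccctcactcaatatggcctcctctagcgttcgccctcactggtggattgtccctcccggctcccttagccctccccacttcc
Atp5b, chr10:128083157-128083306 (plus strand): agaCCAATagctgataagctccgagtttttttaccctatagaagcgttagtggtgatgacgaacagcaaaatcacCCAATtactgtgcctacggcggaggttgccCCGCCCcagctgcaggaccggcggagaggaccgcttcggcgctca
Cox6b2, chr7:4753095-4753244 (minus strand): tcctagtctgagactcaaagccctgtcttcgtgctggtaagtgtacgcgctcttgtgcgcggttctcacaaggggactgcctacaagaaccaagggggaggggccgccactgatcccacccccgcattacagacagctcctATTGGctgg

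The stretches differed in the words they held. Atp5g1 had CCAAT words starting 126, 95, 92 and 69 bases before the start, the middle pair being overlapping words on opposite strands, and a GATA word at 78. Atp5g2 had an NRF1 word at 42 and Atp5g3 a CCAAT word at 72. Atp5b had CCAAT words at 147 and 75 and an Sp1 word on the reverse strand at 45, and Cox6b2 a reverse CCAAT word at 9. In Ndufb5 none of the words was found in this window, which says nothing of the factors. Of the 81 members 66 had a promoter in the RefSeq table, and over their 250 bases before the start the NRF1 word was in 16.7%, against 8.4% of the genes tested and 4.23% of all promoters. The ETS word was in 18.2%, against 14.1% and 7.83%. The Sp1 word was in 37.9%, against 59.2% and 35.4%, and CCAAT in 42.4%, against 39.8% and 37.5%. The YY1 word was in 1.52%, against 5.13% and 5.18%, and the GATA word in 9.09%, against 7.88% and 11.4%. The median GC content was 57% in the members and 58.8% in the genes tested, and these words were matched by letters alone, so the shares are descriptions.

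The first comparison set KSL against LinNeg, the stem-cell-rich fraction against lineage-negative cells at large. No member was called at an adjusted p under 0.05 with a log2 difference of at least 1, where KSL had 2.95% of all genes called higher and 2.35% lower. Without the minimum difference 11 members were lower and none higher by limma's adjusted p, against 3.9% and 4.47% of all genes. The shift was small but broad: 70 of 78 members were below 0, with a median of -0.31 against 0.01 over all genes, and both KSL arrays lay below both LinNeg arrays for 52 members, against 25.7% of all genes tested. The median was -0.22 under quantile normalization and -0.35 under array median centring. Every complex had a negative median, also under those scalings, from -0.25 for complex IV to -0.38 for complex III.

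Among the 11, Ndufs1 and Ndufv1 carry the iron-sulfur clusters and the flavin at which complex I takes up electrons from NADH. Ndufs1 was 471 and 429.9 in the KSL arrays and 801 and 693 in the LinNeg arrays, a difference of -0.72 ± 0.17 (limma adjusted p = 0.0134), with no overlap. Ndufv1 differed by -0.56 ± 0.14 (limma adjusted p = 0.0182). Uqcrfs1, the Rieske iron-sulfur protein of complex III, stood at 1020.2 and 852 in KSL and 1621 and 1409 in LinNeg, a difference of -0.69 ± 0.15 (limma adjusted p = 0.00531). Sdhd, a membrane anchor of complex II, differed by -0.69 ± 0.19 (limma adjusted p = 0.0306), and a dim further probe set of it gave -0.26. The other 7 were Ndufb8, Ndufb9 and Ndufc1, accessory subunits of complex I, Uqcrq of complex III, Cox6b1 and Cox7a2 of complex IV, and Atp5o, which encodes the stalk protein OSCP of the ATP synthase. Their differences ran from -0.66 for Uqcrq to -0.47 for Cox7a2. The 2 KSL arrays themselves differed, with a median relative level over the members of 0.13 in replicate 1 and -0.11 in replicate 2, while the LinNeg arrays stood at 0.44 and 0.23. Without KSL replicate 1, 1 member was called.

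KSL was then compared with the average of the 8 mature populations. Here the members parted by complex. Of the 78, 2 were called higher and none lower, against 15.8% and 6.87% of all genes, and by adjusted p alone 25 were higher and 18 lower, against 27% and 14.6%. The 6 core subunits of complex I that are read here (Ndufv1, Ndufv2, Ndufs1, Ndufs3, Ndufs7 and Ndufs8, which hold the flavin and the iron-sulfur clusters or bind ubiquinone) were all above 0, 5 of them by adjusted p and 4 under array median centring. This group was put together after the values were seen. Complex IV went the other way, with 6 of 14 members lower and 1, Cox6b2, higher by adjusted p and a median of -0.30, against 0.06 over all genes. Under quantile normalization that median was -0.07, with 3 members lower and 3 higher. The lower complex IV members were Cox4i1, Cox6a1, Cox6b1, Cox6c, Cox7a2 and Cox8c, all subunits that surround the catalytic core.

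The 2 members called higher in KSL were Cox6b2 and Atp5g1. Cox6b2 was 104 and 72.4 in KSL, 238 and 198 in LinNeg and 187 and 194 in Erythroblast, and ranged from 2.62 to 54.9 on the arrays of the other 7 populations. So the 3 immature or erythroid populations lay above all other arrays, without overlap. KSL minus the mature mean was 1.54 ± 0.34 (limma adjusted p = 0.00112), although that mean holds the high Erythroblast value. Atp5g1 differed by 1.01 ± 0.21 (limma adjusted p = 0.000609), and its KSL arrays were far apart, as given above. Without KSL replicate 2, 5 members were called, and without any 1 of 7 arrays (replicate 2 of B, CD8T, NK or NKT, or replicate 1 of CD4T, Erythroblast or Neutrophil) 1 was. With Monocyte left out of the mean 1 was called, and with NK left out 3 were.

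Genes around the complexes were called higher in KSL than in the mature mean about as often as genes at large, apart from the TCA cycle enzymes, of which there are few. Over all genes 15.8% were called higher and 6.87% lower. Among the TCA cycle enzymes 4 of 12 were called higher and none lower, among mitochondrial ribosomal proteins 13 of 74 and none, among assembly factors of the complexes 7 of 41 and 1, and among regulators of mitochondrial biogenesis 3 of 17 and none. Suclg2, a subunit of succinyl-CoA ligase, differed by 2.26 ± 0.20 (limma adjusted p = 5.4e-08). Slc25a4 encodes the ADP/ATP carrier ANT1 and differed by 2.05 ± 0.33 (limma adjusted p = 5.46e-05). Against LinNeg, in KSL, Atpif1, the ATP synthase inhibitor, and Mrps36 of the ribosomal list were called lower, and no other gene of the lists was called. These lists, like the members, were chosen with earlier results on these arrays known.

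The erythroblasts are next, in which subunits of one enzyme moved in opposite directions. Against the mean of the other 7 mature populations, 6 members were called higher and 11 lower, where 17.5% and 28.4% of all genes were. By adjusted p alone 28 were higher and 26 lower, against 25.6% and 36.8%. The split between higher and lower called members depended on the scaling, since array median centring gave 9 and 9 and quantile normalization 6 and 13. These scalings moved the median of all genes from -0.13 to -0.01 and to 0.03. By complex, the medians were -0.15 for complex I, -0.40 for complex II, 0.41 for complex III, 0.53 for complex IV and 0.26 for complex V. Those of complexes II, III and IV kept their sign under both scalings, and that of complex I stayed below 0 at -0.05 under centring and -0.39 under quantile normalization. That of complex V turned to -0.08 under quantile normalization. Of the 14 complex IV members 9 were higher and 3 lower by adjusted p, and of the 35 complex I members 5 were higher and 13 lower.

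**Figure D4:**
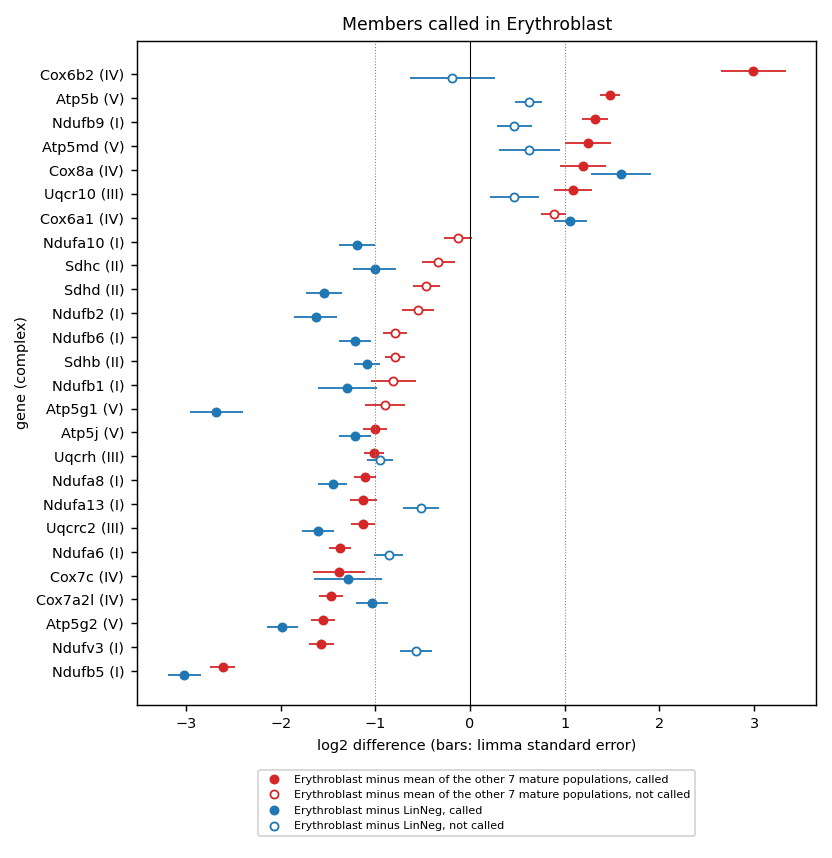
Log2 difference (horizontal axis) of Erythroblast from the mean of the other 7 mature populations (red) and from LinNeg (blue) for the 26 members called in either comparison, with bars for the limma standard error, filled points for called members and dotted lines at -1 and 1. Ndufb5 lies lowest in both, at -2.61 and -3.02, and Cox6b2 highest in red, at 2.99, with its blue value near 0. Both comparisons use the same Erythroblast arrays.

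In complex I, Ndufb5 was the extreme. It encodes an accessory subunit of the membrane arm and stood at 119 and 188 in Erythroblast against 410.3 to 1395 on the other 18 arrays, a difference of -2.61 ± 0.13 from the other mature populations (limma adjusted p = 1.56e-12). Ndufv3, a small subunit of the arm that oxidises NADH, was also below all other arrays, at 583 and 437 against 629 to 3566. Its difference was -1.57 ± 0.13 (limma adjusted p = 2.21e-09), and the high Neutrophil and Monocyte values enter it. Ndufa6 differed by -1.37 ± 0.12, Ndufa13 by -1.13 ± 0.14 and Ndufa8 by -1.11 ± 0.12, all accessory subunits. In contrast, Ndufb9, another subunit of the membrane arm, was 3753 and 3224 in Erythroblast against 966 to 2658 elsewhere, 1.32 ± 0.14 above the other mature populations (limma adjusted p = 8.92e-08). The core subunits did not move as a group, with 3 of 6 above 0, and Ndufv1, at 0.94 ± 0.11 (limma adjusted p = 2.01e-07), was the one that passed the adjusted p.

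Complex III was split too. Uqcrfs1 was 1283 and 1287 in Erythroblast, below LinNeg but above the 279 to 839.9 of the other mature arrays, with a difference of 0.999 ± 0.11 (limma adjusted p = 1.43e-07), just under the minimum of 1. Uqcr10, a small subunit next to cytochrome c1, was called higher at 1.09 ± 0.20, but a dimmer second probe set of the gene gave -1.24 and a further one 0.63. Uqcrc2, a core protein with no redox centre, was 594 and 962 in Erythroblast against 1361 to 2381 elsewhere, a difference of -1.13 ± 0.13 (limma adjusted p = 2.2e-07). A second bright probe set of Uqcrc2 gave a smaller difference, -0.40. Its partner Uqcrc1 differed by 0.79 ± 0.11 in the other direction (limma adjusted p = 5.52e-06). For Uqcrh, the hinge protein, the probe sets disagreed: the brightest gave -1.01 ± 0.10 (limma adjusted p = 4.56e-08) and the second brightest 0.85, so its call is not a settled direction.

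Complex IV was the complex with most members at their peak in Erythroblast, 8 of 14 by mean, where Erythroblast was the highest population for 24.7% of all genes tested. The 8 include Cox4i2 and Cox6a2, dim genes with Erythroblast means of 35.2 and 68.2. Neither passed limma's F test over the 10 populations (adjusted p = 0.266 and 0.17). Cox6a1, the widely expressed isoform of subunit VIa, was 11125 and 7956 in Erythroblast against 2927 to 6547 on the other arrays. Cox7a2, the widely expressed isoform of subunit VIIa, was 7718 and 6802 against 3109.7 to 5786. For both genes the Erythroblast arrays lay above all others, with differences of 0.88 ± 0.13 and 0.69 ± 0.09 from the other mature populations (limma adjusted p = 9.46e-06 and 2.27e-06), under the minimum of 1. Cox8a, the common isoform of the smallest subunit, was called higher at 1.19 ± 0.24, from 824 and 599.7 in Erythroblast against 132 to 575 elsewhere. Cox6b2 was called at 2.99 ± 0.34 (limma adjusted p = 2.44e-07), against intensities of 2.62 to 54.9 in the other mature populations. Cox7a2l ran the other way, at 1319.8 and 1669 in Erythroblast against 2306 to 7510.0 elsewhere, a difference of -1.47 ± 0.13 (limma adjusted p = 4.63e-09). Cox7c, a small structural subunit, differed by -1.38 ± 0.27 (limma adjusted p = 0.000176). Cox8a and Cox7c were among 17 members read by probe sets of the kinds marked _x_at and _s_at, which can bind related transcripts. The others were Ndufa2, Ndufa3, Ndufa12, Ndufa13, Ndufc2, Ndufs8, Uqcrh, Uqcrq, Cox5b, Atp5a1, Atp5c1, Atp5d, Atp5e, Atp5j2 and Atp5pb.

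The ATP synthase was split as well. Atp5b encodes the catalytic beta subunit and was 4544 and 4073 in Erythroblast against 1037 to 2851 on the other arrays, 1.48 ± 0.11 above the other mature populations (limma adjusted p = 3.02e-10). The alpha subunit gene Atp5a1 differed by -0.17 ± 0.10 (limma adjusted p = 0.144), but its second bright probe set gave 0.33, so its direction is not settled. Atp5h and Atp5j2, which encode subunits d and f, lay above all other arrays in Erythroblast, with differences of 0.81 ± 0.10 and 0.75 ± 0.13 (limma adjusted p = 9.85e-07 and 3.23e-05). Atp5md, a small subunit of the membrane part, was called higher at 1.25 ± 0.24, from 721 and 741, a level that LinNeg replicate 1 also reached at 737. Atp5j, which encodes coupling factor 6 of the stalk, was 705 and 1069 against 1404 to 2373 elsewhere and was called lower at -1.005 ± 0.13. Atp5g2 was called lower too, at -1.56 ± 0.12 (limma adjusted p = 1.45e-09). Proliferation markers and the Gapdh 3′ to 5′ ratio were highest in Erythroblast, as given above, while the same ratio for Actb, at 2.48, was not (2.56 in LinNeg and 2.54 in KSL). Their part in these differences was not tested.

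Set against LinNeg in place of the mature populations, Erythroblast had 2 members called higher and 15 lower, with 14.5% and 28.9% of all genes called. By adjusted p alone 11 were higher and 37 lower, against 18.8% and 34.3%. Both comparisons share the Erythroblast arrays. Complex II was lower throughout: all 4 genes passed the adjusted p and 3 were called. Sdhd was 251 and 313 in Erythroblast and 993 and 698 in LinNeg, a difference of -1.55 ± 0.19 (limma adjusted p = 1.12e-06). Sdhb, the iron-sulfur subunit, stood at 641 and 787 against 1621 and 1418, and against 1055 to 1621 over all other arrays. It differed from LinNeg by -1.09 ± 0.14 (limma adjusted p = 1.91e-06), the second anchor gene Sdhc by -1.01 ± 0.23 and the flavoprotein gene Sdha by -0.92 ± 0.15 (limma adjusted p = 0.000986 and 4.25e-05). For all 4 genes, by the probe sets kept, the Erythroblast and LinNeg arrays did not overlap. Further probe sets had the same sign, at -0.24 for Sdhd (a dim one), -0.45 and -0.32 for Sdha and -1.06 for Sdhc.

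In complex I, 21 of 35 members were lower than in LinNeg by adjusted p and 2 higher, and 5 of the 6 core subunits were lower. In complex IV, 5 of 14 were higher and 3 lower. The members called higher were Cox8a, at 1.60 ± 0.32, and Cox6a1, at 1.06 ± 0.18 (limma adjusted p = 0.000303 and 4.28e-05). The lowest were Ndufb5 at -3.02 ± 0.17, Atp5g1 at -2.68 ± 0.28 and Atp5g2 at -1.98 ± 0.16, followed by Ndufb2 at -1.63 ± 0.23 and Uqcrc2 at -1.60 ± 0.17 (limma adjusted p from 4.03e-11 to 5.23e-06). Ndufb2 encodes a subunit of the membrane arm of complex I, and a dim second probe set of that gene gave 0.24. For Uqcrc2 a second bright probe set gave -0.99. Cox6b2, given above as high in both, differed by -0.19 ± 0.45 (limma adjusted p = 0.754). Without Erythroblast replicate 1, 10 members were called. Erythroid markers were already present in LinNeg, as given above, and their part was not tested.

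Many genes that build and serve the complexes were lower in Erythroblast than in LinNeg, where 28.9% of all genes were called lower and 14.5% higher. Of 41 assembly factors 27 were called lower and 3 higher, of 74 mitochondrial ribosomal proteins 44 and none, of 12 TCA cycle enzymes 6 and none, and of 17 regulators of mitochondrial biogenesis 7 and 1. Bcs1l, which inserts the Rieske protein into complex III, differed by -4.17 ± 0.30 (limma adjusted p = 9.09e-10). Tfam, which packages and transcribes mitochondrial DNA, differed by -2.30 ± 0.22, and Ppargc1b, a coactivator of mitochondrial genes, by -2.49 ± 0.34 (limma adjusted p = 4.06e-08 and 3.66e-06). Suclg1, the alpha subunit of succinyl-CoA ligase, differed by -3.33 ± 0.22 (limma adjusted p = 2.65e-10). The median of the assembly factors was -1.33 and that of the ribosomal proteins -1.20, against -0.31 for the subunits and -0.19 for all genes. Against the other mature populations, where 17.5% of all genes were called higher and 28.4% lower, the counts higher and lower were 2 and 19 for the assembly factors, 3 and 21 for the ribosomal proteins, 2 and 6 for the biogenesis regulators, and 2 each for the TCA cycle enzymes, so that the ribosomal proteins were called lower about as often as genes at large. Esrra, a nuclear receptor that drives mitochondrial genes, differed there by -2.74 ± 0.21, and Cox11, which delivers copper to complex IV, by 2.25 ± 0.19 in the other direction (limma adjusted p = 7.62e-10 and 3.07e-09).

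Of 11 electron and nucleotide carriers and related genes, 2 were called lower than in LinNeg and 1 higher, and 2 of these 3 stood far apart. Slc25a4 was 10.1 and 1.67 in Erythroblast and 1.69 and 18.4 in Neutrophil, near the floor of the arrays, with 102 and 323 in Monocyte and 586 to 1642 on all other arrays. Slc25a5, which encodes the related carrier ANT2 and was picked after its values were seen, ranged from 2045 to 5642 on all 20 arrays. For Slc25a4 the difference of Erythroblast from LinNeg was -6.19 ± 0.44 (limma adjusted p = 6.19e-10), and for Slc25a5 it was -0.88 ± 0.16 (limma adjusted p = 0.00011). Atpif1 encodes the inhibitor of the ATP synthase and is known to be needed for haem synthesis. It was 5427 and 6002 in Erythroblast, 2791 and 2251 in LinNeg, 1378 and 929 in KSL and 164 to 589 on the other arrays, so these 3 populations formed descending steps without overlap. Atpif1 in Erythroblast was 4.14 ± 0.14 above the other mature populations, and in KSL it differed from LinNeg by -1.14 ± 0.18 (limma adjusted p = 3.48e-15 and 0.000568).

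Lymphoid and myeloid cells were compared next, as the mean of the 5 lymphoid populations against that of Neutrophil and Monocyte. Of the members 5 were called higher in lymphoid cells and 3 lower, where 17.4% and 11.9% of all genes were called. By adjusted p alone 29 were higher and 24 lower, against 32.2% and 22.8%. The median of the members was 0.03 against 0.10 for all genes. It was 0.08 against 0.00 under quantile normalization and -0.06 against 0.00 under centring, so the members had no common direction. Leaving out Monocyte, whose arrays held neutrophil markers, raised the called members to 14, of which 11 were higher and 3 lower, and leaving out NK gave 9.

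**Figure D5:**
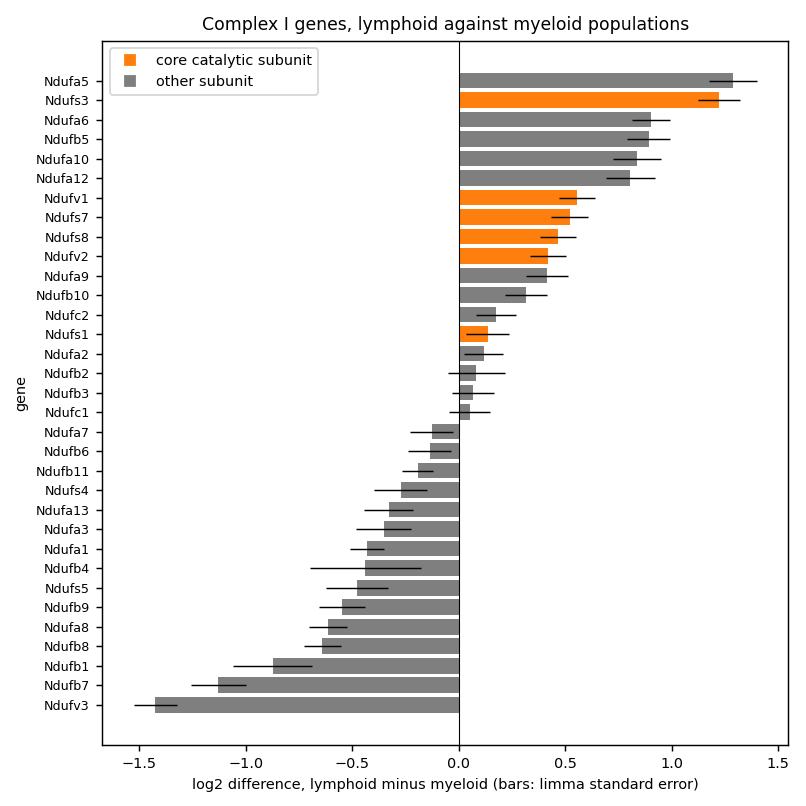
Log2 difference of the lymphoid from the myeloid populations (horizontal axis) for the 33 genes named for complex I other than Ndufa4 and Ndufa4l2, with the limma standard error. All 6 core subunits (orange) lie above 0 and the other 27 (grey) run from -1.43 for Ndufv3 to 1.29 for Ndufa5.

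Within complex I the core subunits and part of the accessory subunits went opposite ways. All 6 core subunits were higher in lymphoid cells, 5 of them by adjusted p, and this held under both other scalings. The largest was Ndufs3, a core subunit of the part that passes electrons to ubiquinone, at 204 and 198 in Neutrophil and 260.5 and 307 in Monocyte against 460.4 to 736 on the lymphoid arrays, a difference of 1.22 ± 0.10 (limma adjusted p = 2.23e-09). The other differences that passed were Ndufv1 at 0.56 ± 0.08, Ndufs7 at 0.52 ± 0.09, Ndufs8 at 0.47 ± 0.08 and Ndufv2 at 0.42 ± 0.08. Of the other 27 genes named for complex I, 7 were higher and 11 lower by adjusted p. Ndufa5, which sits beside Ndufs3 in the enzyme, was 204 and 286 in Neutrophil and 538 and 503 in Monocyte against 604 to 1104 in lymphoid cells, a difference of 1.29 ± 0.11 (limma adjusted p = 8.59e-09).

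Ndufv3 was the member most raised in myeloid cells. It was 3267 and 3090.4 in Neutrophil and 3566 and 2481 in Monocyte, against 437 to 1409.9 on all other arrays, and lymphoid minus myeloid was -1.43 ± 0.10 (limma adjusted p = 3.66e-10). Ndufb7, a subunit of the membrane arm, was 3693 and 3451 in Neutrophil and 3958 and 2849 in Monocyte against 1124 to 2093 elsewhere, a difference of -1.13 ± 0.13 (limma adjusted p = 3.27e-07). For both genes the 4 myeloid arrays lay above the other 16. By mean, Neutrophil was the lowest population for 5 of the 6 core subunits, against 20.4% of all genes tested. It was the highest for 10 of the other 27, against 14.7% of all genes. Those 10 were Ndufa1, Ndufa3, Ndufa7, Ndufa8, Ndufa13, Ndufb4, Ndufb7, Ndufb11, Ndufs5 and Ndufv3. Both Neutrophil arrays lay above the other 18 for Ndufa1, Ndufa3, Ndufa8 and Ndufb11 alone. Ndufa7, Ndufb4 and Ndufs5 did not pass limma's F test over the 10 populations (adjusted p = 0.0502, 0.131 and 0.118). Ndufb4 was read by a probe set near background here, since its bright probe sets also carry the symbols of related genes and were not used. It passed the filter on low values through Neutrophil alone, with a mean log2 level of 4.92 against a filter of 4.89. Its peak in Neutrophil was therefore fixed by the filter.

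Outside complex I the called members higher in lymphoid cells were Atp5g2 at 1.496 ± 0.10, Atp5g1 at 1.46 ± 0.16 and Cox7c at 1.204 ± 0.21, and Cox6b2 was called lower at -1.10 ± 0.27 (limma adjusted p = 1.06e-10, 2.4e-07, 6.83e-05 and 0.00161). The 5 genes of the catalytic F1 head of the ATP synthase (Atp5a1, Atp5b, Atp5c1, Atp5d and Atp5e) were grouped after their values were seen. Of these, 4 were higher by adjusted p, from 0.20 for Atp5d to 0.64 for Atp5a1, and Atp5c1, the gamma subunit, was at 0.01. A second bright probe set of Atp5d gave 0.95, so its place in this order is not settled. Sdha differed by 0.74 ± 0.09 and Sdhd by -0.55 ± 0.11, in opposite directions within complex II (limma adjusted p = 7.33e-07 and 0.000347). For Sdha a second probe set gave -0.06 and a dim one 1.35, and for Sdhd a dim one gave -0.09. Sdhd was 601 and 549.7 in Neutrophil and 474 and 440.0 in Monocyte, against 259.9 to 424 on the lymphoid arrays, with no overlap. Sdha was 933 and 701 in Neutrophil and 875 and 832 in Monocyte, below the 1109.6 to 1662 of the lymphoid arrays. In complex IV, 2 of 14 members were higher and 6 lower.

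The surrounding lists are set beside the 17.4% of all genes called higher and the 11.9% called lower in lymphoid cells. Of 41 assembly factors 16 were called higher and none lower, of 74 mitochondrial ribosomal proteins 27 and 1, of 17 biogenesis regulators 6 and none, of 12 TCA cycle enzymes 4 and none, and of 11 carriers and related genes 1 and 1. Ndufaf4, an assembly factor of complex I, differed by 3.24 ± 0.20 (limma adjusted p = 5.2e-11). Idh3a, a subunit of the NAD-dependent isocitrate dehydrogenase, differed by 2.50 ± 0.13, and Pprc1, a coactivator related to Ppargc1b, by 2.72 ± 0.15 (limma adjusted p = 7.19e-12 and 6.63e-12). Mrpl52 and Mrps6, proteins of the large and small mitochondrial ribosomal subunits, differed by 3.57 ± 0.13 and 3.30 ± 0.13 (limma adjusted p = 2.7e-14 and 9.86e-14).

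Between the myeloid populations, 3 members were called lower in Neutrophil than in Monocyte and none higher, with 9.46% and 2.58% of all genes called. By adjusted p alone 16 were lower and 1, Atp5e, higher, against 13.7% and 5.57%. Of the 16, 11 belong to complex I, among them 4 of the 6 core subunits (1 under array median centring). Under that centring 10 members passed as lower. The median of the members was -0.08, as over all genes. It was 0.00 against 0.01 under centring and -0.18 against -0.01 under quantile normalization. Uqcrfs1 was 279 and 350.4 in Neutrophil and 608 and 681 in Monocyte, a difference of -1.02 ± 0.15 (limma adjusted p = 6.33e-05). Ndufa5 differed by -1.08 ± 0.19 and Atp5g1 by -1.10 ± 0.28 (limma adjusted p = 0.000514 and 0.00789). The arrays of the 2 populations did not overlap for these 3 genes. Without Neutrophil replicate 1 no member was called, and none was under quantile normalization, where 22 members still passed the adjusted p as lower in Neutrophil. Of the biogenesis regulators 5 of 17 and of the mitochondrial ribosomal proteins 16 of 74 were called lower in Neutrophil, where 9.46% of all genes were, and 0 and 1 higher. Assembly factors gave 3, TCA cycle enzymes 3 and carriers 4 lower, and none higher. Pprc1 differed by -2.78 ± 0.25 (limma adjusted p = 5.36e-07). Proliferation markers summed to 9697 and 12408 in Monocyte, above the Neutrophil values given earlier, and the Monocyte arrays held neutrophil markers. The part of either in these differences was not tested.

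Few members were called between the lymphoid populations. B against the mean of the T populations gave 1 called member, higher in B, where 5.82% of all genes were called higher and 7.01% lower. By adjusted p alone 3 were higher and 4 lower, against 8.63% and 10.6%. CD4T against CD8T gave 1 member called higher and none lower (2.08% and 1.08% of all genes), and 1 and 2 by adjusted p alone (2.51% and 1.54%). Yet 65 of 78 members were below 0 there, with a median of -0.17 against 0.015 over all genes. Both CD4T arrays lay below both CD8T arrays for 41 members and above for 5, against 22.5% and 24.2% of all genes tested. The median was -0.13 under quantile normalization and -0.26 under array median centring, against -0.01 and -0.08 over all genes. NK against NKT gave 1 higher and 2 lower (6.73% and 4.39% of all genes), and 1 and 9 by adjusted p alone (8.67% and 7.61%). Under array median centring NK against NKT kept its higher call, that of Ndufb1, and neither lower call, B against T had 2 members called higher, and CD4T against CD8T had none.

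Ndufb1, a short single-span subunit of the membrane arm of complex I, was the member called higher in each of these 3 comparisons. It was 221 and 219 in B, 61.8 and 63.3 in CD4T, 17.95 and 30.5 in CD8T, 65.8 and 59.5 in NK and 29.7 and 24.9 in NKT, with 34.2 to 165 on the other arrays. The B arrays lay above all others, and the CD8T and NKT arrays, which overlapped, below all others. The CD8T and NKT values were near background, as the median intensities of the arrays ran from 20.3 to 26.8. B minus T was 2.30 ± 0.27 (limma adjusted p = 2.56e-06), CD4T minus CD8T 1.19 ± 0.31 (limma adjusted p = 0.0376) and NK minus NKT 1.03 ± 0.31 (limma adjusted p = 0.03). The CD4T call was absent under quantile normalization and under centring, and was lost without any 1 of 7 arrays (either replicate of B, CD4T or NK, or CD8T replicate 1). In NKT, Cox8a was 575 and 418 against 301 and 164 in NK, and NK minus NKT was -1.12 ± 0.32 (limma adjusted p = 0.0206). Ndufa10, an accessory subunit of complex I, was 1003 and 1068 against 471 and 552, a difference of -1.01 ± 0.19 (limma adjusted p = 0.000827). Without any 1 of the 4 NK and NKT arrays 1 member was called. The NK arrays held macrophage and neutrophil markers, whose part was not tested. Cox7a2l was higher in T than in B cells at B minus T of -0.69 ± 0.15 (limma adjusted p = 0.00155), with 7510.0 and 5895 in CD8T and 3970.2 and 3619 in B.

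Tissue-restricted isoforms of complex IV were mostly near background. Cox4i2, the lung isoform of subunit IV, ranged from 11.7 to 38.7, and Cox6a2, the muscle isoform of VIa, from 18.6 to 86.6. Their widely expressed counterparts Cox4i1 and Cox6a1 ranged from 3926 to 7779 and from 2927 to 11125, each read by its own probe set. The untested Cox7a1, Cox7b2 and Cox8b did not exceed a population mean of 19.2. Ndufa4l2, known to be induced by low oxygen, had population means from 4.37 to 28.1. Cox8c, known from testis, had population means from 62.6 to 146, lowest in KSL. Cox6b2 had the widest span of these isoforms, the 4.09 given above, while its common counterpart Cox6b1 spanned 0.55 on the log2 scale.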

How the data were processed

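RNA of 10 sorted populations, 2 biological replicates each per the labels, was read on Affymetrix Mouse Genome 430 2.0 arrays. The values used are the deposited linear intensity values per probe set. In the deposited file the mean of each array, trimmed by 2% at each end, is 100 for all 20 arrays, so the values carry a global scaling, and the software behind it is not given in the sources used here. Probe sets of a single symbol were kept, with the brightest per gene over all arrays, which gave 18193 genes. Intensities were taken to log2(intensity + 6.75), the addend being the 25th percentile, and the 14044 genes above the median level in at least 1 population were tested.

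A limma (3.58.1, R 4.3.3) model with 1 factor for the 10 populations and a trended variance gave 9 contrasts. A gene was called at a Benjamini-Hochberg adjusted p under 0.05 over all genes tested and a log2 difference of at least 1. In contrasts of several populations the spread among populations does not enter the standard error. With 2 arrays per population the number of arrays limits the precision. Tested on simulated data for Erythroblast minus LinNeg over 14044 genes, the fit called 13 of 46 genes changed by 1 on the log2 scale, 26 of 47 at 1.5, 35 of 45 at 2 and 45 of 47 at 3.

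The members and the lists (assembly factors, mitochondrial ribosomal proteins, biogenesis regulators, TCA cycle enzymes, electron and nucleotide carriers) were chosen with earlier results of these data known. Any member could be named, with up to 6 called members per direction and contrast required, and from each other list up to 4 called genes per contrast. The groups of complex I core and ATP synthase head genes and Slc25a5 were picked after their values were seen. Alternatives covered scaling, pseudocount, filter, probe set choice, threshold, the variance trend, a replicate block and each array left out. Leaving out NK or Monocyte was added after seeing the data. Promoters came from RefSeq (GRCm38.p6). A further 9 probe sets that carry a member's symbol beside another gene's were not used.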

Additional observations from a re-analysis of the deposited data

How the results depend on the processing

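Of 124 counts of members called under another setting, 85 stayed within 1.5 times the value reported. The others, where the cause was not tested unless the setting itself gives it, were as follows. Quantile normalization gave 1 for KSL minus the mature mean, 0 for Neutrophil minus Monocyte, 2 for B minus T and 0 for CD4T minus CD8T. Array median centring gave 1 for Neutrophil minus Monocyte, 2 for B minus T, 0 for CD4T minus CD8T and 1 for NK minus NKT. A pseudocount at the 5th percentile gave 2 for B minus T, as did a variance without trend. A pseudocount at the median gave 1 for KSL minus LinNeg, KSL minus the mature mean, Neutrophil minus Monocyte and NK minus NKT, and 0 for CD4T minus CD8T. With no filter CD4T minus CD8T gave 0. The mean of all probe sets gave 1 for KSL minus the mature mean, 4 for lymphoid minus myeloid, 1 for Neutrophil minus Monocyte, 2 for B minus T and 1 for NK minus NKT. With no minimum difference the counts were 11, 43, 53, 17, 54, 48, 7, 3 and 10 for KSL minus LinNeg, KSL minus the mature mean, lymphoid minus myeloid, Neutrophil minus Monocyte, Erythroblast minus the other mature populations, Erythroblast minus LinNeg, B minus T, CD4T minus CD8T and NK minus NKT. Tested against a difference of 1 (limma's treat) they were 0 for KSL minus the mature mean, 3 for lymphoid minus myeloid, 0 for Neutrophil minus Monocyte, 7 for each Erythroblast comparison, and 0 for CD4T minus CD8T and NK minus NKT. Leaving out Monocyte gave 1 for KSL minus the mature mean and 14 for lymphoid minus myeloid, and for Erythroblast minus the other mature populations leaving out Monocyte or NK gave 17 and 18.

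Leaving out 1 array at a time gave 0 to 1 for KSL minus LinNeg, 1 to 5 for KSL minus the mature mean, 8 to 10 for lymphoid minus myeloid, 0 to 4 for Neutrophil minus Monocyte, 15 to 19 and 10 to 22 for Erythroblast against the other mature populations and LinNeg, 1 to 2 for B minus T, 0 to 1 for CD4T minus CD8T, 1 to 3 for NK minus NKT and 69 to 72 for the F test. B minus T gave 2 without B replicate 1, CD4T replicate 2 or CD8T replicate 1. In these refits the lone array is assumed to vary like the other populations.

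With the replicate number as a block the counts of called members were the same in all 9 contrasts, and the F test gave 72. The numbers did not pair the arrays: 1 of 45 pairs of populations had a correlation of deviations above 0.1, with a median of 0.0064.

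Of 2520 values of single named members under another setting, 2332 kept direction and call, 128 lost the call, 56 gained it and 4 reversed. The reversed values were those of Atp5a1 in Erythroblast minus the other mature populations (0.079 with the mean of all probe sets, 0.33 without probe sets marked _x_at or _s_at), of Uqcrh in that comparison (0.85 without those probe sets) and of Cox6b2 in Erythroblast minus LinNeg (0.10 under quantile normalization). Of 76 named differences, 47 had a further probe set above the filter, and 9 of those had 1 or more with the opposite sign. The remaining such case was Uqcrq in KSL minus LinNeg, at 0.02 from a dim probe set, and for Atp5j2 in Erythroblast a dim one gave -0.01.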

Other observations

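Among the TCA cycle enzymes Erythroblast differed from the other mature populations in both directions. Ogdh and Dlst, subunits of the dehydrogenase that makes succinyl-CoA, were higher by 1.32 ± 0.14 and 1.04 ± 0.15 (limma adjusted p = 8.37e-08 and 5.68e-06). Suclg1 and Sucla2, subunits of the ligases that use it up in the cycle, differed by -2.48 ± 0.17 and -1.06 ± 0.14 (limma adjusted p = 1.11e-10 and 2.17e-06). Against LinNeg, Suclg2 and Fh1, the fumarase gene, differed by -2.84 ± 0.27 and -2.35 ± 0.25 (limma adjusted p = 2.91e-08 and 1.78e-07). Between the myeloid populations Idh3a and Fh1 were lower in Neutrophil than in Monocyte, by -2.49 ± 0.23 and -2.07 ± 0.25 (limma adjusted p = 7.01e-07 and 1.3e-05), and so were Etfa and Etfb, the subunits of the electron transfer flavoprotein, by -1.29 ± 0.21 and -1.06 ± 0.17 (limma adjusted p = 0.000234 and 0.000253). These genes came from the lists given above, by size of difference among the called genes.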
